A study of Mus musculus with 12 samples.

Results

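Accessible chromatin at the genes of the Id and E proteins was measured by ATAC-seq, which counts Tn5 transposase insertions into open DNA, in thymic iNKT1, iNKT2 and iNKT17 cells of C57BL/6 and Hivep3-/- mice. The members were chosen by position: every region of the deposited table that overlaps the gene body of Id2, Id3, Tcf3, Tcf4 or Tcf12 in GENCODE vM21, or the 10 kb on either side of it. This gave 31 of 63309 regions, 8 at Id2, 4 at Id3, 4 at Tcf3, 7 at Tcf4 and 8 at Tcf12. Each region is 500 bp long (mm10) and is called here by its gene and the distance of its centre from the annotated start of that gene, with a minus sign for upstream.

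The series compares wild-type C57BL/6 mice with Hivep3-/- mice of the same background strain, which lack a large zinc finger protein that the study links to iNKT cell development. There were 6 groups, 1 for each genotype and subset, with 2 libraries each. All animals were untreated and 8 to 9 weeks old. Sorting took iNKT1 cells as CD122+ and without ICOS, iNKT2 cells as ICOS+ Izumo1r+ without CD122 or CD138, and iNKT17 cells as ICOS+ CD138+ without CD122 or Izumo1r. The sorted subsets were pooled for transposition and then separated again by ICOS and CD138. Cells came from pooled thymi, although the titles number the libraries as single mice, so a library is not necessarily 1 animal. Values are the deposited normalized insertions per kb on the log2 scale, so a difference of 1 is 2-fold. Read counts are not in the table. Values step in discrete levels, of which 73 to 491 lie below the median of a library, and no member stood at the minimum of any library.

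E proteins are basic helix-loop-helix transcription factors that bind DNA as dimers at the E-box. Id proteins carry the helix-loop-helix without the basic part, so that an E protein paired with an Id protein does not bind DNA. In the thymus, E proteins act in T cell receptor gene rearrangement and are required for iNKT cells, while Id2 and Id3 restrain them and influence which iNKT subsets accumulate.

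The following sequences are of the 6 regions called in the same comparison of subsets in both genotypes, 1 upstream of Id2 and 5 in introns of Tcf12. They are printed because they show where E-boxes lie in these regions. Each is the central 300 bases of the region, on the plus strand of GRCm38.p6, with every E-box CANNTG in capitals.
Id2 -7.0 kb (chr12:25103942-25104241): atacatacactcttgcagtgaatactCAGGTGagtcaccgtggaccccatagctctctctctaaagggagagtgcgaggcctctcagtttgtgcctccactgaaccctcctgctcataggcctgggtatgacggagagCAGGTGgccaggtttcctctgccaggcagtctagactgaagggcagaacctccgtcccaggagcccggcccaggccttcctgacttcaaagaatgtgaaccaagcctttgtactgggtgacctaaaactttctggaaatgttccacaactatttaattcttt
Tcf12 +10.7 kb (chr9:72101006-72101305): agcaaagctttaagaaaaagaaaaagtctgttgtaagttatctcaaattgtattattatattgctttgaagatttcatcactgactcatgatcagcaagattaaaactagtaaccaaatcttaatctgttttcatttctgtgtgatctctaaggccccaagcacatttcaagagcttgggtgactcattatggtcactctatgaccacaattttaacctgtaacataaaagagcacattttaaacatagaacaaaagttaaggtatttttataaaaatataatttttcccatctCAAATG
Tcf12 +11.8 kb (chr9:72099966-72100265): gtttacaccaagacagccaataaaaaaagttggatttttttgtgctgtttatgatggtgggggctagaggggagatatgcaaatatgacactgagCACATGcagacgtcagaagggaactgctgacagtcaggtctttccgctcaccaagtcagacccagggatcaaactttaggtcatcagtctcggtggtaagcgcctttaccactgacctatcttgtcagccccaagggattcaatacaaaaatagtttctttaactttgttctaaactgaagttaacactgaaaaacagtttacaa
Tcf12 +13.6 kb (chr9:72098097-72098396): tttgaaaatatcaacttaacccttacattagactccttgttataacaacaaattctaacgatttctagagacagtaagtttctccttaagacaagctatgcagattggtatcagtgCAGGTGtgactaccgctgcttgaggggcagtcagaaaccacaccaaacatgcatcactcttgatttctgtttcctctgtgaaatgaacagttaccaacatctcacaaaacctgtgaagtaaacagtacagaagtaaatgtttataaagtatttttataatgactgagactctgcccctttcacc
Tcf12 +14.6 kb (chr9:72097147-72097446): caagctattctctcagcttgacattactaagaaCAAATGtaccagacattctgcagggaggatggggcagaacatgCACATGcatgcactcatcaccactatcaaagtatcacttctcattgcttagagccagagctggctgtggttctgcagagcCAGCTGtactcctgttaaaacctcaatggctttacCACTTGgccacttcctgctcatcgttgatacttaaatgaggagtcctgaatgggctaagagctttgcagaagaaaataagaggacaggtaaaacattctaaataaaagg
Tcf12 +237.3 kb (chr9:71874437-71874736): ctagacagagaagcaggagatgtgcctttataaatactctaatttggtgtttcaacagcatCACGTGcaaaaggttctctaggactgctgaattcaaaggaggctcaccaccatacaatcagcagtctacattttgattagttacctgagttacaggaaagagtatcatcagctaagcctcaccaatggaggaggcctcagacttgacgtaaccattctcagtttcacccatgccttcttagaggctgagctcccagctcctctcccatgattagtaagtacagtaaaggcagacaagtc

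An E-box CANNTG is common at this length. On both strands it occurred in 90.3% of the 63309 regions, with a median of 2 matches, and in 29 of the 31 members, with a median of 3. The E protein form CAGGTG was in 34.6% of all regions and in 12 of the 31 members, and CAGCTG in 27.1% of all regions and in 10 members. The Id2 -7.0 kb region held 2 CAGGTG, a number reached by 7.53% of regions. Other Id2 regions that were not called held as many or more, 2 at -1.8 kb and 4 at +4.1 kb, the latter a number reached by 0.186% of regions. In the Tcf12 +13.6 kb region CAGGTG shares its last 5 bases with a match to the T-box letters AGGTGTGA, which 2.91% of regions hold, and the Runt letters AACCACA, held by 17.4% of regions, follow in the same window. The Tcf12 +14.6 kb region had 6 E-boxes over its whole length, 4 of them in the printed window, and also AACCACA. The Tcf12 +11.8 kb region had 5 E-boxes, 1 of them in the window. The Tcf12 +237.3 kb region held 1 E-box, CACGTG, and 2 matches to the TCF letters TTCAAAG, a number reached by 0.885% of regions. Id2 -7.0 kb and Tcf12 +10.7 kb each held 1 match to TTCAAAG, as do 11.2% of regions at least. The ROR letters AGGTCA were matched 2 times in Tcf12 +11.8 kb, a number reached by 4.78% of regions, and 1 time in Id2 -7.0 kb. The Tcf12 +0.7 kb promoter region, which was not called in any comparison, had 3 matches to the Egr letters GCGTGGG, a number reached by 0.0490% of regions. Over the 31 members 2 held these letters (6.45%), against 6.81% of all regions. A match is a description of the letters and does not show that a factor binds.

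The labels were read against promoter accessibility of marker genes. The promoter of Il17a, the cytokine of iNKT17 cells, lay between 5.59 and 5.91 in the 4 iNKT17 libraries and at or below -0.78 in the other 8. Xcl1, a chemokine of iNKT1 cells, lay between 6.42 and 6.59 in iNKT1, between 2.61 and 4.12 in iNKT2, and between -0.41 and 0.82 in iNKT17 libraries. Il4, a cytokine of iNKT2 cells, ranged from 5.52 to 5.95 in iNKT2, from 4.33 to 5.18 in iNKT1 and from 3.97 to 4.89 in iNKT17 libraries. Each of these 3 promoters was thus highest in its own subset. So were the other subset markers reported here, except Zbtb16. On the iNKT2 list, Zbtb16 had 6.73 to 6.99 in iNKT2 libraries and overlapped the iNKT17 libraries, at 6.63 to 6.91. Cd3e, which all T cells use, was between 6.02 and 6.45 throughout. Of 9 genes that mark B cells, myeloid cells, NK cells or double-positive thymocytes, 7 had no promoter region in the table (Ms4a1, Csf1r, Lyz2, Ncr1, Rag1, Ptcra and Cd8a). The others were Ebf1, at 2.70 to 3.51, and Spi1, at 5.07 to 5.35 in iNKT1, 4.46 to 4.82 in iNKT2 and 4.08 to 4.39 in iNKT17 libraries.

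The Hivep3 locus does not check the genotype labels, because the sources used here do not give which part of the gene is deleted. It had 21 regions, and its promoter lay between 6.36 and 6.72 over all libraries. By limma, which fits a linear model to every region, none of its 20, 18 and 12 regions tested in iNKT1, iNKT2 and iNKT17 cells changed between genotypes by the rule used throughout, a change of 3-fold or more with an adjusted p below 0.1. The counts were 0, 0 and 0 (all regions, 1.15%, 1.68% and 0.271%), with 5, 3 and 5 regions at an unadjusted p under 0.05. Over all regions such a p was found at 9644 of 54145, 13911 of 55049 and 8570 of 54311.

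At the 5 genes no promoter region differed between subsets by 3-fold, whereas introns of Tcf12 and Tcf4 and a region upstream of Id2 did. A region was tested where either compared group had a mean of at least 5 insertions per kb, which 30 of the 31 members did in each comparison of subsets. In C57BL/6 mice, 5 of 30 members were called between iNKT1 and iNKT2 cells, where 16.0% of 58322 regions were. Between iNKT1 and iNKT17 cells of C57BL/6 mice 7 of 30 were called (all regions, 20.5% of 59317), and between iNKT2 and iNKT17 cells 2 of 30 (16.2% of 58866). In Hivep3-/- mice the counts were 5 of 30 between iNKT1 and iNKT2 cells (17.3% of 58649), 5 of 30 between iNKT1 and iNKT17 cells (19.3% of 59142) and 3 of 30 between iNKT2 and iNKT17 cells (15.6% of 58563). The members' shares, from 6.67% to 23.3%, lay near those of all regions where iNKT1 cells were compared and below them between iNKT2 and iNKT17 cells, and a share near that of all regions is not a result about these genes. Median absolute log2 changes of the members were above that of all regions between C57BL/6 iNKT1 and iNKT2 cells, at 0.563 against 0.461, and below it in the other comparisons. These were 0.393 against 0.507 and 0.344 against 0.427 for C57BL/6 iNKT1 and iNKT2 cells, each compared with iNKT17 cells. In Hivep3-/- mice they were 0.462 against 0.507 for iNKT1 and iNKT2 cells, and 0.275 against 0.474 and 0.307 against 0.436 for these 2 subsets compared with iNKT17 cells. Comparisons within a genotype share libraries, as do comparisons of genotypes with those of subsets, while the subset comparisons of C57BL/6 mice share none with those of Hivep3-/- mice. A region high in 1 group alone, whether subset or genotype, passes the filter through that group and so had to differ.

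Over the 6 subset comparisons 9 of the 31 regions were called at least once (all regions, 34.8% of 63308). By position against any protein-coding gene these were 8 of 8 in introns, 1 of 7 outside genes, and 0 of 15 at promoters, where limma gave an unadjusted p under 0.05 in a subset comparison at 11 of the 15. Over all regions 48.6% of those in introns, 44.9% of those outside genes and 11.9% of those at promoters were called, so a larger share in introns than at promoters is found over the whole table and is not particular to the members. By gene the 9 were 1 of 8 regions at Id2, 0 of 4 at Id3, 0 of 4 at Tcf3, 2 of 7 at Tcf4 and 6 of 8 at Tcf12. At Id3 and Tcf3 limma gave an unadjusted p under 0.05 in a subset comparison at 3 and 3 regions. In single subset comparisons the share of all regions with such a p ran from 30560 of 58866 to 33819 of 58649. The share with such a p in any of the 6 was not computed, so these counts and that of the promoters are not a result about these genes. Between iNKT1 and iNKT2 cells 3 regions were called in both genotypes, which is 3 of 5 in each (all regions, 69.8% of the C57BL/6 and 64.3% of the Hivep3-/- calls). Between iNKT1 and iNKT17 cells 5 were shared, of 7 in C57BL/6 and 5 in Hivep3-/- mice (all regions, 76.2% and 81.2%), and between iNKT2 and iNKT17 cells 1, of 2 and 3 (73.0% and 76.4%). In this last pair Tcf4 +204.7 kb was called in C57BL/6 mice and fell just short of 3-fold in Hivep3-/- mice. Every shared call of the members had the same direction in both genotypes, as had 6516 of 6533, 9276 of 9277 and 6970 of 6970 shared calls over all regions.

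**Figure D1:**
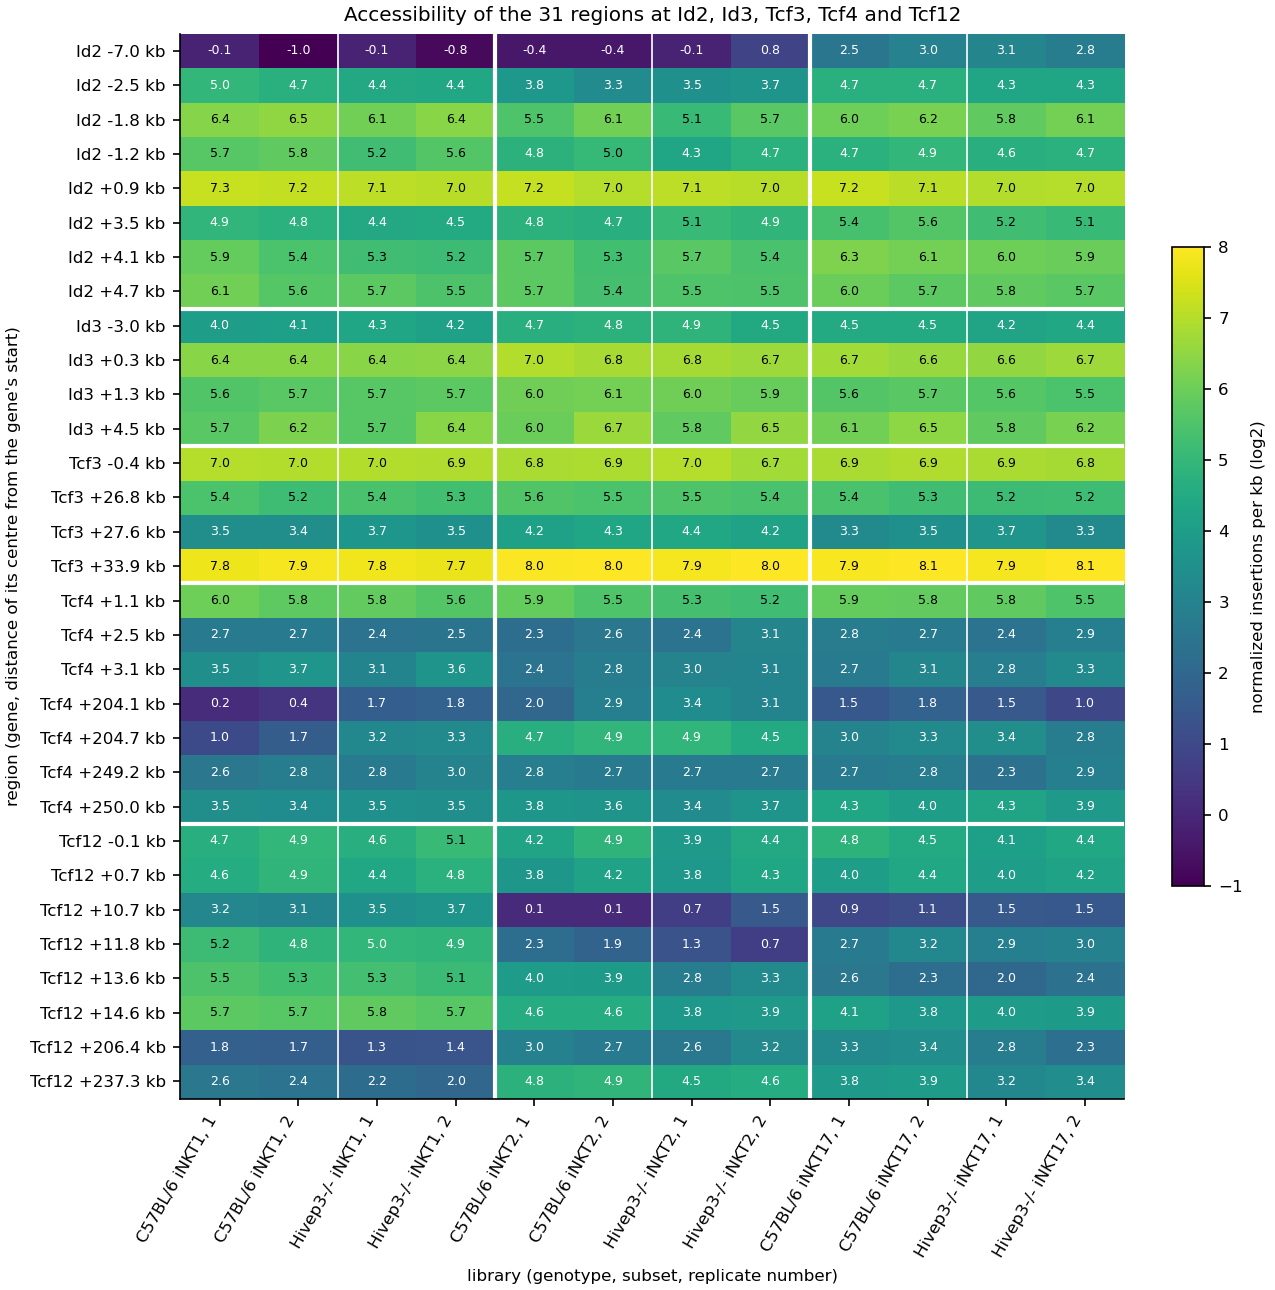
Accessibility (log2 normalized insertions per kb, colour and printed value) of the 31 regions (vertical axis, by gene and distance from its start) in the 12 libraries (horizontal axis, 2 per group). Promoter regions such as Id2 +0.9 kb and Tcf3 -0.4 kb are even across libraries, while the Tcf12 +10.7 to +14.6 kb regions are high in iNKT1 libraries and Id2 -7.0 kb is high in iNKT17 libraries.

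Id2 is an inhibitor known for its role in NK cells and innate lymphoid cells. The gene (ENSMUSG00000020644.9, chr12:25093799-25097140, minus strand) had 8 regions. Its promoter region (chr12:25095955-25096454) had C57BL/6 values of 7.26 and 7.16 in iNKT1 cells, 7.23 and 7.00 in iNKT2 cells, and 7.24 and 7.06 in iNKT17 cells. Hivep3-/- libraries had 7.11 and 7.04 in iNKT1 cells, 7.10 and 7.03 in iNKT2 cells, and 6.97 and 6.99 in iNKT17 cells. The C57BL/6 libraries of the 3 subsets overlapped, and none of the 9 comparisons of subsets or genotypes had a change beyond 0.17 in size.

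The Id2 -7.0 kb region (chr12:25103842-25104341), between genes and with the 2 CAGGTG printed above, was accessible in iNKT17 cells. C57BL/6 libraries had -0.11 and -1.01 in iNKT1 cells, -0.41 and -0.41 in iNKT2 cells, and 2.55 and 3.00 in iNKT17 cells. Hivep3-/- libraries had -0.10 and -0.77 in iNKT1 cells, -0.13 and 0.84 in iNKT2 cells, and 3.10 and 2.79 in iNKT17 cells. All 4 iNKT17 libraries lay above the 8 others, and the genotypes overlapped within iNKT1 and iNKT17 cells. The log2 change of iNKT1 against iNKT17 cells was -3.33 (SE 0.49, adjusted p = 6.68e-05) in C57BL/6 and -3.38 (SE 0.49, adjusted p = 6.39e-05) in Hivep3-/- mice. For iNKT2 against iNKT17 cells it was -3.19 (SE 0.49, adjusted p = 0.000131) and -2.59 (SE 0.49, adjusted p = 0.000701). Between iNKT1 and iNKT2 cells the region was too low to be tested. The folds rest on low values outside iNKT17 cells: with 5 added to every linear value the C57BL/6 changes were -1.06 and -1.05, and the Hivep3-/- changes -1.14 and -1.01, all below 3-fold. With a mean of at least 5 required over all 12 libraries the region, at 3.04, was not tested, which ended its 4 calls. In pooled cells of a sorted subset, a smaller share of cells with an open region and less opening per cell cannot be told apart, here or at any region. Permuting the labels of 2 against 2 libraries cannot give an exact p below 0.333, so the tests rest on the spread that limma shares between regions.

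Regions nearer to Id2 differed by less than 3-fold, some in other directions and some in the same, and the 3 named here were chosen after their values were seen. At -2.5 kb the C57BL/6 values were 4.95 and 4.72 in iNKT1 cells, 3.79 and 3.34 in iNKT2 cells, and 4.73 and 4.72 in iNKT17 cells. The Hivep3-/- values there were 4.44 and 4.39 in iNKT1 cells, 3.52 and 3.66 in iNKT2 cells, and 4.28 and 4.29 in iNKT17 cells. All 4 iNKT2 libraries were below the 8 others. The change of iNKT1 against iNKT2 cells was 1.28 (SE 0.17, adjusted p = 3.56e-05) in C57BL/6 and 0.82 (SE 0.17, adjusted p = 0.00104) in Hivep3-/- mice. At -1.2 kb, a promoter region of Id2, the iNKT1 libraries were the higher ones, with 5.68 and 5.79 in C57BL/6 and 5.25 and 5.59 in Hivep3-/- mice. The other libraries there had 4.80 and 5.02 and 4.31 and 4.74 in iNKT2 cells, and 4.73 and 4.94 and 4.63 and 4.74 in iNKT17 cells, in the same order of genotypes. At +3.5 kb, at the end of the gene, iNKT17 exceeded iNKT1 cells in both genotypes, with log2 changes of iNKT1 against iNKT17 of -0.65 (adjusted p = 0.000949) and -0.67 (adjusted p = 0.000754). The Id2 locus thus held regions highest in iNKT1 cells, regions lowest in iNKT2 cells and regions highest in iNKT17 cells within about 10 kb. The remaining 3 regions ranged from 5.07 to 6.49 over all libraries.

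Id3 is the inhibitor that is induced by T cell receptor signals during thymic selection. The gene (ENSMUSG00000007872.3, chr4:136143497-136145755, plus strand) had 4 regions and 0 called changes. At its promoter (chr4:136143537-136144036) the C57BL/6 values were 6.39 and 6.40 in iNKT1 cells, 6.97 and 6.83 in iNKT2 cells, and 6.74 and 6.63 in iNKT17 cells. Those of Hivep3-/- mice were 6.39 and 6.42 in iNKT1 cells, 6.77 and 6.68 in iNKT2 cells, and 6.55 and 6.68 in iNKT17 cells. All 4 iNKT1 libraries were the lowest, while iNKT2 and iNKT17 libraries overlapped. For iNKT1 against iNKT2 cells the promoter's change was -0.50 (SE 0.08, adjusted p = 0.000214) in C57BL/6 and -0.32 (SE 0.08, adjusted p = 0.00509) in Hivep3-/- mice. The Id3 -3.0 kb region (chr4:136140229-136140728) had the widest range at the locus, with C57BL/6 values of 4.01 and 4.09 in iNKT1 cells, 4.69 and 4.77 in iNKT2 cells, and 4.51 and 4.51 in iNKT17 cells. Its values in Hivep3-/- mice were 4.30 and 4.16 in iNKT1 cells, 4.85 and 4.46 in iNKT2 cells, and 4.24 and 4.37 in iNKT17 cells. The iNKT1 libraries lay below all iNKT2 libraries, with changes of -0.68 (SE 0.15, adjusted p = 0.00246) and -0.42 (SE 0.15, adjusted p = 0.0336) in the 2 genotypes. The other 2 regions, at +1.3 and +4.5 kb, ranged from 5.47 to 6.66.

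Tcf3 encodes the E2A proteins E12 and E47. The gene (ENSMUSG00000020167.14, chr10:80409514-80433647, minus strand) had 4 regions, none within its body. Its promoter region (chr10:80433825-80434324) had C57BL/6 values of 7.01 and 6.97 in iNKT1 cells, 6.85 and 6.88 in iNKT2 cells, and 6.86 and 6.92 in iNKT17 cells. Hivep3-/- values were 6.96 and 6.92 in iNKT1 cells, 6.99 and 6.74 in iNKT2 cells, and 6.85 and 6.79 in iNKT17 cells. The groups lay close together, with a range over group means of 0.17. The 3 other regions lie beyond the 3' end of the gene at promoters of its neighbours, at +33.9 kb of Mbd3 and at +27.6 and +26.8 kb of Uqcr11, so their values need not concern Tcf3. The +27.6 kb region (chr10:80405759-80406258) varied most, with 3.45 and 3.45 in iNKT1 cells, 4.16 and 4.33 in iNKT2 cells, and 3.29 and 3.53 in iNKT17 cells in C57BL/6 mice. Hivep3-/- libraries had 3.71 and 3.50 in iNKT1 cells, 4.38 and 4.18 in iNKT2 cells, and 3.70 and 3.29 in iNKT17 cells. All 4 iNKT2 libraries were above the 8 others. The change of iNKT1 against iNKT2 cells was -0.79 (adjusted p = 0.00352) in C57BL/6 and -0.67 (adjusted p = 0.00936) in Hivep3-/- mice, less than 3-fold.

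Tcf4 encodes the E protein E2-2, best known from plasmacytoid dendritic cells. The gene (ENSMUSG00000053477.17, chr18:69343356-69689079, plus strand) had 7 regions. Its promoter region (chr18:69344170-69344669) had C57BL/6 values of 6.02 and 5.77 in iNKT1 cells, 5.86 and 5.51 in iNKT2 cells, and 5.87 and 5.84 in iNKT17 cells. In Hivep3-/- libraries they were 5.82 and 5.57 in iNKT1 cells, 5.33 and 5.25 in iNKT2 cells, and 5.79 and 5.52 in iNKT17 cells. The subsets overlapped in C57BL/6 mice, the 2 Hivep3-/- iNKT2 libraries were the lowest, and no change at this promoter was called. The 4 promoter regions at +2.5, +3.1, +249.2 and +250.0 kb ranged from 2.26 to 4.32. Of these, 2 were chosen after their values were seen. At +3.1 kb C57BL/6 libraries had 3.49 and 3.68 in iNKT1 cells, 2.41 and 2.77 in iNKT2 cells, and 2.72 and 3.14 in iNKT17 cells, with a change of iNKT1 against iNKT2 cells of 1.00 (adjusted p = 0.00630), and of 0.31 (adjusted p = 0.340) in Hivep3-/- mice. At +250.0 kb they had 3.46 and 3.39 in iNKT1 cells, 3.76 and 3.65 in iNKT2 cells, and 4.32 and 4.03 in iNKT17 cells, with a change of iNKT1 against iNKT17 cells of -0.75 (adjusted p = 0.00469), and of -0.56 (adjusted p = 0.0252) in Hivep3-/- mice.

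The intron region Tcf4 +204.7 kb (chr18:69547833-69548332) was the 1 member called between genotypes. C57BL/6 libraries had 1.02 and 1.66 in iNKT1 cells, 4.65 and 4.91 in iNKT2 cells, and 3.02 and 3.32 in iNKT17 cells. Hivep3-/- libraries had 3.20 and 3.32 in iNKT1 cells, 4.91 and 4.50 in iNKT2 cells, and 3.44 and 2.79 in iNKT17 cells. The 4 iNKT2 libraries were highest and the 2 C57BL/6 iNKT1 libraries lowest of all 12, while Hivep3-/- iNKT1 libraries lay among the iNKT17 libraries. In C57BL/6 mice iNKT1 cells differed from iNKT2 cells by -3.45 (SE 0.27, adjusted p = 5.04e-07) and from iNKT17 cells by -1.83 (SE 0.27, adjusted p = 6.27e-05). The C57BL/6 change of iNKT2 against iNKT17 cells was 1.61 (SE 0.27, adjusted p = 0.000246). In Hivep3-/- mice the change of iNKT1 against iNKT2 cells was -1.44 (adjusted p = 0.000534), that against iNKT17 cells 0.15 (adjusted p = 0.687), and that of iNKT2 against iNKT17 cells 1.58 (adjusted p = 0.000291), none of them 3-fold. The last fell just short of it. The changes of iNKT2 against iNKT17 cells in the 2 genotypes, 1.61 and 1.58, were nearly equal and lay on either side of the cutoff. The call in C57BL/6 mice alone is therefore not a difference between genotypes.

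Some of these calls lie close to 3-fold. The C57BL/6 change of iNKT1 against iNKT17 cells was -1.50 with 1 added to every linear value, -0.89 with 5 added, and -1.51 without iNKT1 replicate 1. That of iNKT2 against iNKT17 cells was 1.51 and 1.21 with 1 and 5 added, 1.48 without iNKT2 replicate 2 and 1.46 without iNKT17 replicate 1. These settings ended the call through the fold alone. The neighbouring Tcf4 +204.1 kb region (chr18:69547206-69547705) had C57BL/6 values of 0.15 and 0.36 in iNKT1 cells, 1.96 and 2.89 in iNKT2 cells, and 1.46 and 1.83 in iNKT17 cells. Its Hivep3-/- values were 1.69 and 1.82 in iNKT1 cells, 3.38 and 3.08 in iNKT2 cells, and 1.50 and 0.97 in iNKT17 cells. The order of the groups was similar, with C57BL/6 iNKT1 libraries lowest and iNKT2 libraries highest. Its change of iNKT1 against iNKT2 cells in C57BL/6 mice was -2.17 (SE 0.36, adjusted p = 0.00026), and -1.55 or -0.76 with 1 or 5 added. For iNKT2 against iNKT17 cells in Hivep3-/- mice it was 2.00 (SE 0.36, adjusted p = 0.000499), and 0.96 with 5 added. The first was not tested without C57BL/6 iNKT2 replicate 2, as the other library alone fell below the filter. Neither was tested with a mean of at least 5 required over all 12 libraries, where the region had 4.20.

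Tcf12 encodes HEB, the E protein required for iNKT cell precursors. The gene (ENSMUSG00000032228.16, chr9:71842688-72111871, minus strand) had 8 regions, 2 at its promoter and 6 in introns, and each intron region was called in a comparison of subsets. At the promoter (chr9:72111699-72112198) the C57BL/6 values were 4.69 and 4.94 in iNKT1 cells, 4.24 and 4.86 in iNKT2 cells, and 4.83 and 4.50 in iNKT17 cells. Those of Hivep3-/- libraries were 4.63 and 5.08 in iNKT1 cells, 3.86 and 4.42 in iNKT2 cells, and 4.08 and 4.38 in iNKT17 cells. The subsets overlapped in C57BL/6 mice, where the change of iNKT1 against iNKT2 cells was 0.27 (adjusted p = 0.396). The same change in Hivep3-/- mice was 0.72 (adjusted p = 0.0235), less than 3-fold. The other promoter region, at +0.7 kb, had C57BL/6 values of 4.57 and 4.88 in iNKT1 cells, 3.76 and 4.20 in iNKT2 cells, and 4.04 and 4.37 in iNKT17 cells, and Hivep3-/- values of 4.37 and 4.76 in iNKT1 cells, 3.80 and 4.32 in iNKT2 cells, and 4.01 and 4.18 in iNKT17 cells. The iNKT1 libraries were above those of the other subsets within each genotype, with a change of iNKT1 against iNKT2 cells of 0.75 (adjusted p = 0.0130) in C57BL/6 and 0.50 (adjusted p = 0.0752) in Hivep3-/- mice.

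From 10.7 to 14.6 kb downstream of the start, 4 intron regions were highest in iNKT1 cells. At +11.8 kb (chr9:72099866-72100365), the member with the widest range, C57BL/6 libraries had 5.17 and 4.84 in iNKT1 cells, 2.26 and 1.86 in iNKT2 cells, and 2.70 and 3.19 in iNKT17 cells. Hivep3-/- libraries had 4.96 and 4.90 in iNKT1 cells, 1.29 and 0.66 in iNKT2 cells, and 2.88 and 2.95 in iNKT17 cells. The 3 subsets did not overlap, with iNKT1 highest and iNKT2 lowest. For iNKT1 against iNKT2 cells the change was 2.94 (SE 0.26, adjusted p = 1.28e-06) in C57BL/6 and 3.96 (SE 0.26, adjusted p = 7.33e-08) in Hivep3-/- mice. Against iNKT17 cells it was 2.06 (SE 0.26, adjusted p = 1.62e-05) and 2.01 (SE 0.26, adjusted p = 2.16e-05). The change of iNKT2 against iNKT17 cells was called in Hivep3-/- mice at -1.94 (SE 0.26, adjusted p = 4.01e-05), and was -0.89 (adjusted p = 0.0126) in C57BL/6 mice. With 5 added, the changes against iNKT17 cells were 1.54 and 1.50 for iNKT1, and -0.84 for Hivep3-/- iNKT2 cells (-1.52 with 1 added), below 3-fold.

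At Tcf12 +13.6 kb (chr9:72097997-72098496), whose window holds the overlapping CAGGTG and AGGTGTGA, C57BL/6 values were 5.48 and 5.27 in iNKT1 cells, 3.97 and 3.90 in iNKT2 cells, and 2.57 and 2.27 in iNKT17 cells. The Hivep3-/- values were 5.31 and 5.15 in iNKT1 cells, 2.83 and 3.31 in iNKT2 cells, and 2.01 and 2.39 in iNKT17 cells. Here too the subsets did not overlap, but iNKT17 cells were lowest. The change of iNKT1 against iNKT17 cells was 2.96 (SE 0.21, adjusted p = 9.74e-08) in C57BL/6 and 3.02 (SE 0.21, adjusted p = 9.2e-08) in Hivep3-/- mice. Against iNKT2 cells it was 1.44 (adjusted p = 8.67e-05) and, called, 2.16 (adjusted p = 2.18e-06). At Tcf12 +10.7 kb (chr9:72100906-72101405) the C57BL/6 libraries had 3.16 and 3.06 in iNKT1 cells, 0.06 and 0.06 in iNKT2 cells, and 0.91 and 1.11 in iNKT17 cells. Those of Hivep3-/- mice had 3.52 and 3.66 in iNKT1 cells, 0.66 and 1.52 in iNKT2 cells, and 1.50 and 1.47 in iNKT17 cells. The iNKT1 libraries were above the 8 others. This difference of iNKT1 from iNKT2 cells was 3.05 (SE 0.33, adjusted p = 7.41e-06) and 2.50 (SE 0.33, adjusted p = 3.09e-05) in the 2 genotypes, and against iNKT17 cells 2.10 (adjusted p = 0.000116) and 2.10 (adjusted p = 0.000124). With 5 added these 4 changes were 1.17, 1.24, 0.96 and 1.13. With the mean over all 12 libraries required to be at least 5 the region, at 4.79, was not tested.

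The next 3 Tcf12 regions were chosen after their values were seen. At +14.6 kb (chr9:72097047-72097546) the C57BL/6 values were 5.73 and 5.66 in iNKT1 cells, 4.58 and 4.58 in iNKT2 cells, and 4.14 and 3.79 in iNKT17 cells. Hivep3-/- values were 5.80 and 5.67 in iNKT1 cells, 3.78 and 3.86 in iNKT2 cells, and 3.99 and 3.92 in iNKT17 cells. The iNKT1 libraries were again highest, and Hivep3-/- iNKT2 libraries overlapped the iNKT17 libraries. Here the change of iNKT1 against iNKT17 cells was 1.74 (SE 0.14, adjusted p = 3.31e-07) and 1.78 (SE 0.14, adjusted p = 2.87e-07) in C57BL/6 and Hivep3-/- mice, and 1.47 and 1.51 with 5 added. Without C57BL/6 iNKT17 replicate 2 the first was 1.56, below 3-fold. Against iNKT2 cells it was 1.12 (adjusted p = 2.6e-05) in C57BL/6 and, called, 1.91 (adjusted p = 1.98e-07) in Hivep3-/- mice.

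In the far part of the gene 2 intron regions were lowest in iNKT1 cells. At +237.3 kb (chr9:71874337-71874836) the C57BL/6 values were 2.58 and 2.43 in iNKT1 cells, 4.79 and 4.90 in iNKT2 cells, and 3.82 and 3.94 in iNKT17 cells. Hivep3-/- values were 2.20 and 1.98 in iNKT1 cells, 4.47 and 4.57 in iNKT2 cells, and 3.19 and 3.40 in iNKT17 cells. The 3 subsets did not overlap, with iNKT2 highest. The change of iNKT1 against iNKT2 cells was -2.34 (SE 0.18, adjusted p = 4.28e-07) and -2.44 (SE 0.18, adjusted p = 1.86e-07) in the 2 genotypes, and both passed the test in all 15 alternatives. At +206.4 kb (chr9:71905246-71905745) C57BL/6 libraries had 1.77 and 1.74 in iNKT1 cells, 2.95 and 2.70 in iNKT2 cells, and 3.31 and 3.40 in iNKT17 cells. Hivep3-/- libraries had 1.33 and 1.38 in iNKT1 cells, 2.60 and 3.23 in iNKT2 cells, and 2.81 and 2.28 in iNKT17 cells. The iNKT1 libraries were below the 8 others. The C57BL/6 change of iNKT1 against iNKT17 cells was -1.60 (SE 0.28, adjusted p = 0.000271). It missed 3-fold at -1.36 and -0.86 with 1 and 5 added, at -1.51 after a renewed quantile normalization, and at -1.58 and -1.55 without iNKT1 replicate 2 or iNKT17 replicate 2. So introns of 1 E protein gene held 4 regions highest and 2 regions lowest in iNKT1 cells. Spi1, the myeloid marker with a promoter region, was also highest in iNKT1 and lowest in iNKT17 libraries (values above), and its part in the Tcf12 results was not tested.

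**Figure D2:**
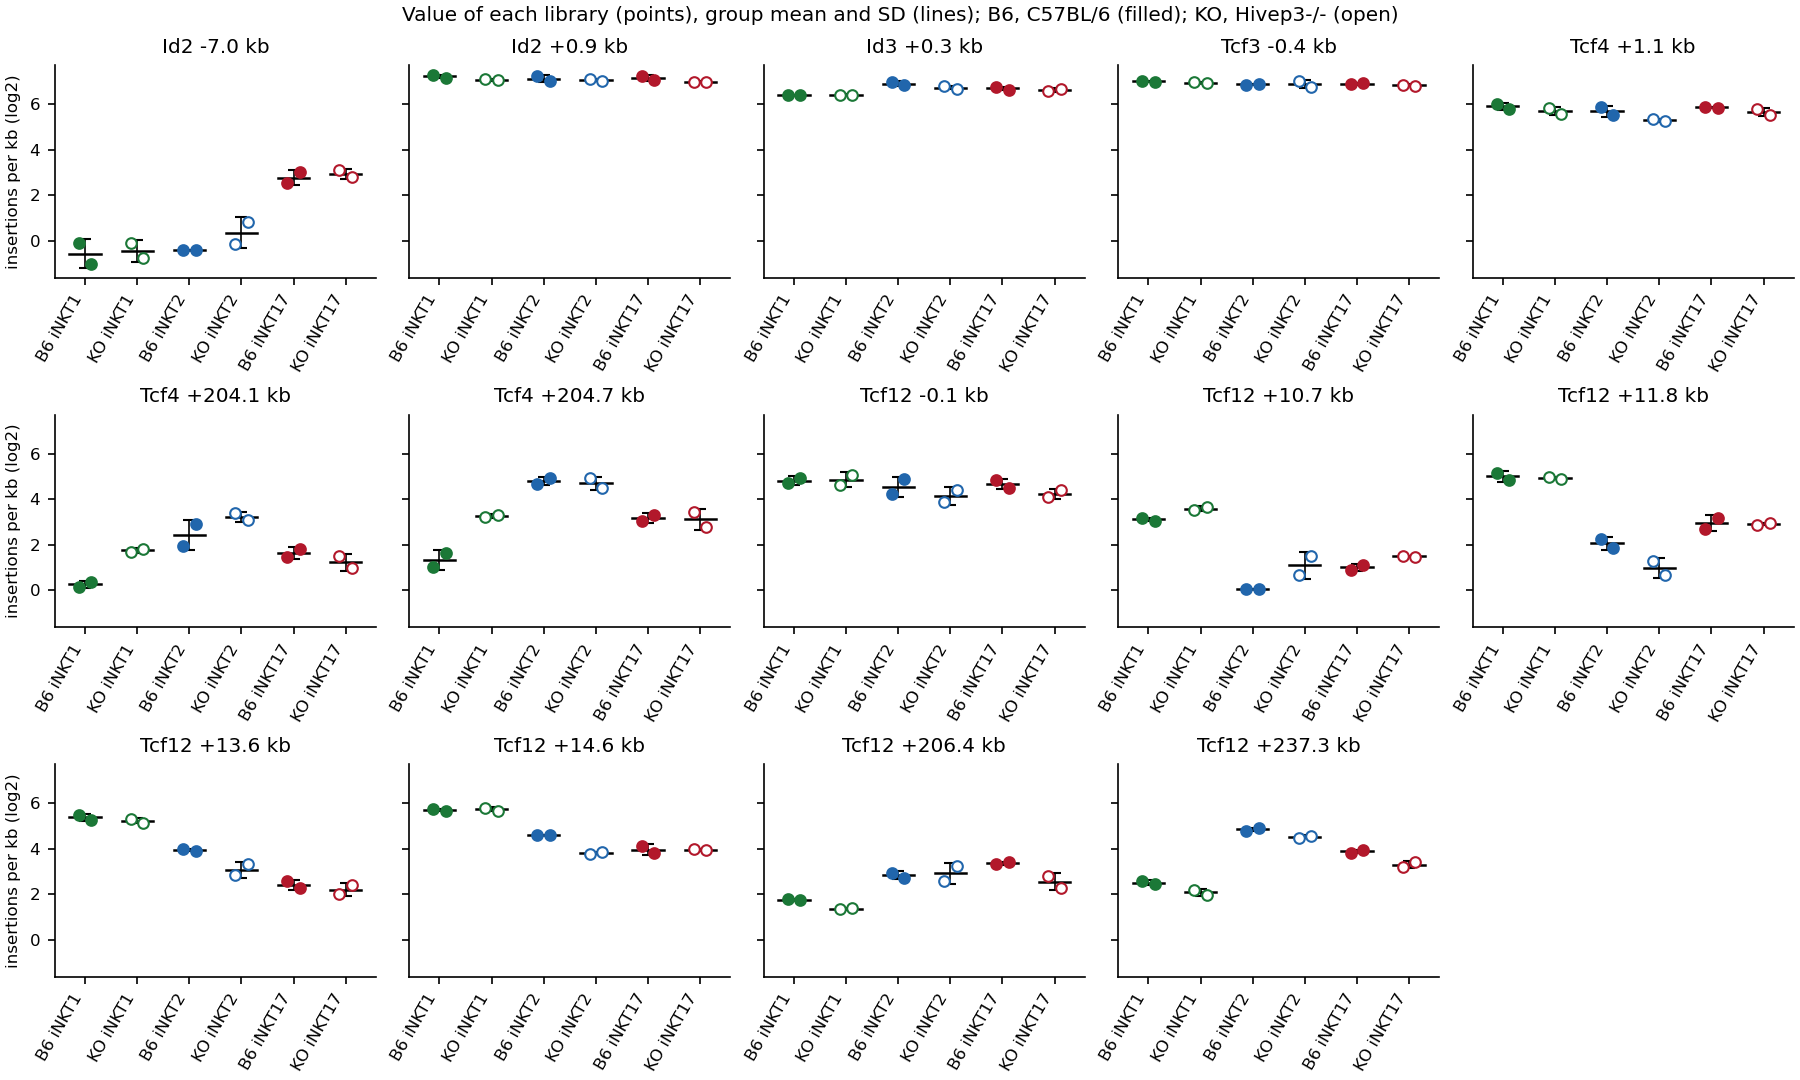
Value of each library (points, log2 normalized insertions per kb, vertical axis) at the promoter region of each of the 5 genes and the 9 regions called between subsets, with the group mean and SD (lines) for the 6 groups (horizontal axis; B6, C57BL/6, filled; KO, Hivep3-/-, open). Group means at the promoters of Id2, Id3 and Tcf3 span 0.23, 0.50 and 0.17, and those at Tcf4 and Tcf12 span 0.60 and 0.72. Id2 -7.0 kb is high in iNKT17 cells, and the Tcf12 intron regions separate iNKT1 cells from the others.

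**Figure D3:**
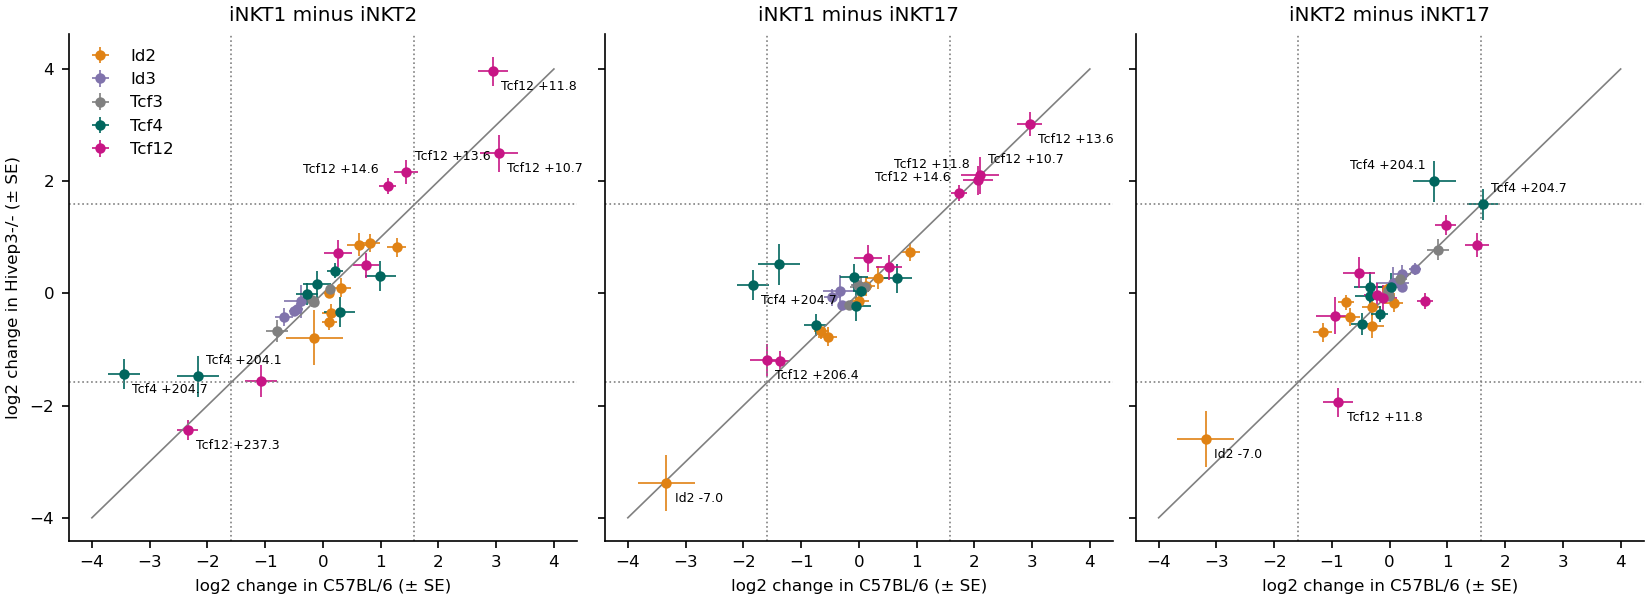
Log2 change between 2 subsets in C57BL/6 mice (horizontal axis) and in Hivep3-/- mice (vertical axis) at the members, with SE as bars, the line of equal change, and dotted lines at 3-fold. Regions called in either genotype are named. Tcf4 +204.7 kb lies away from the line in both comparisons with iNKT1 cells, and Tcf12 +11.8, +13.6 and +14.6 kb and Tcf4 +204.1 kb also lie off it in some comparison.

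The question of the knockout comparison is what the loss of Hivep3 changes within a subset. At the 5 genes 1 region passed the 3-fold rule, in an intron of Tcf4 in iNKT1 cells, and not with 1 or 5 added to every linear value. In iNKT2 cells 3 of 28 regions tested had smaller changes with an adjusted p below 0.1 by limma. Over all regions 9036 of 55049 had such an adjusted p there, a larger share, so these 3 are not a result about these genes. In iNKT1 cells 1 of 28 members tested was called, against 1.15% of 54145 regions. In iNKT2 cells the count by limma was 0 of 28 (1.68% of 55049), with 5 members at an unadjusted p under 0.05. In iNKT17 cells it was 0 of 29 (0.271% of 54311), with 4 at an unadjusted p under 0.05. Median absolute changes of the members were 0.172, 0.122 and 0.145 for the 3 subsets in that order, and 0.162, 0.215 and 0.172 over all regions tested.

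Tcf4 +204.7 kb was higher in Hivep3-/- than in C57BL/6 iNKT1 cells, with both libraries of the knockout above both controls and a change of 1.93 (SE 0.27, adjusted p = 0.000989). The linear means were 2.59 in C57BL/6 and 9.62 in Hivep3-/- cells, so the region passed the filter through the knockout alone. With a filter on the mean over all 12 libraries, which it also passed, the change was called as before (adjusted p = 0.000977). It was 1.58 (adjusted p = 0.000756) with 1 added and 0.95 with 5 added, below 3-fold. In iNKT2 and iNKT17 cells the changes were -0.08 (adjusted p = 0.895) and -0.05 (adjusted p = 0.958). The difference between these genotype changes was itself tested. It was 2.01 (SE 0.38, adjusted p = 0.00860) for iNKT1 against iNKT2 cells, the 1 call among 30 members (3.06% of 59926 regions), and 1.98 (SE 0.38, adjusted p = 0.0201) for iNKT1 against iNKT17 cells, again 1 of 30 (1.42% of 60543). With 5 added these were 1.02 and 0.98. For iNKT2 against iNKT17 cells limma gave 0 of 30 (1.02% of 60297), with 6 at an unadjusted p under 0.05 (all regions, 8968 of 60297). The neighbouring +204.1 kb region was too low in iNKT1 cells to be tested between genotypes, with a change of 1.50.

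Marker promoters were also compared between genotypes in iNKT1 cells by limma. None was called, and of the iNKT2 and iNKT17 markers only Il4 and Zbtb16 had an adjusted p below 0.1. Of the 4 iNKT2 markers, 3 had lower mean promoter values in Hivep3-/- iNKT1 cells. Il4 had 5.18 and 5.08 in C57BL/6 and 4.33 and 4.33 in Hivep3-/- libraries (adjusted p = 0.00729). Zbtb16 had 6.57 and 6.42 against 5.94 and 6.11 (adjusted p = 0.0151). Izumo1r had 5.51 and 5.51 against 5.35 and 5.19 (adjusted p = 0.654). Ccr7, on the list although it marks iNKT precursors rather than mature iNKT2 cells, had 5.85 and 6.07 against 6.02 and 6.18. Its adjusted p was 0.551. The sum of the 4 on the linear scale was 235 and 232 in C57BL/6 and 187 and 198 in Hivep3-/- iNKT1 libraries, with Zbtb16 the most accessible in C57BL/6 and Ccr7 in Hivep3-/- libraries. Of the 4 iNKT17 markers Ccr6, Il23r and Il17a were too low in iNKT1 cells to be tested. Ccr6 had -3.12 and -2.39 in C57BL/6 and -0.10 and -0.59 in Hivep3-/- iNKT1 libraries. Sdc1 had 3.46 and 3.64 against 3.73 and 3.84 (adjusted p = 0.515). The means of Il23r and Il17a were lower, from -0.94 and -2.39 against -4.05 and -2.37, and -3.12 and -3.79 against -4.05 and -3.79. The iNKT17 markers summed to 11.8 and 12.9 in C57BL/6 and 14.4 and 15.3 in Hivep3-/- iNKT1 libraries, most of it from Sdc1. The Hivep3-/- iNKT1 libraries also had more value levels below their median, 227 and 491 against 139 and 170. Their part in the result was not tested.

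In iNKT2 cells 3 members had an adjusted p under 0.1 between genotypes without reaching 3-fold, the Tcf4 promoter at -0.40 (adjusted p = 0.0945) and 2 intron regions of Tcf12. This is 3 of 28 tested, a smaller share than the 9036 of 55049 regions with such an adjusted p by limma. Both Hivep3-/- libraries were below both C57BL/6 libraries at +14.6 kb, with a change of -0.76 (SE 0.14, adjusted p = 0.00467), and at +13.6 kb, with -0.86 (SE 0.21, adjusted p = 0.0199). The +11.8 kb region, too low in iNKT2 cells to be tested between genotypes, differed by -1.09, while the +10.7 kb region, also untested, differed by 1.03. In iNKT1 cells the changes were 0.04 (adjusted p = 0.951) at +14.6 kb and -0.15 (adjusted p = 0.833) at +13.6 kb. The difference between the genotype changes of iNKT1 and iNKT2 cells was 0.80 (SE 0.20, adjusted p = 0.0328) at +14.6 kb and 0.71 (SE 0.30, adjusted p = 0.190) at +13.6 kb.

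Of the iNKT1 markers, Ifng and Xcl1 differed between genotypes in the same libraries with an adjusted p below 0.1 by limma. Of 5 such markers 4 had lower means in Hivep3-/- than in C57BL/6 iNKT2 cells. Ifng had 4.93 and 4.69 in C57BL/6 and 2.60 and 2.85 in Hivep3-/- iNKT2 libraries, a called change of -2.08 (adjusted p = 0.000285). Xcl1 had 4.12 and 3.86 against 3.33 and 2.61 (adjusted p = 0.0329), less than 3-fold. Tbx21 had 4.63 and 4.53 against 4.18 and 4.38 (adjusted p = 0.357). Il2rb had 7.62 and 7.62 against 7.47 and 7.64 (adjusted p = 0.576). Klrb1c had the opposite sign, with 2.67 and 2.30 against 3.05 and 2.95 (adjusted p = 0.116). The summed linear level was 275 and 266 in C57BL/6 and 220.1 and 241 in Hivep3-/- iNKT2 libraries, most of it from Il2rb. The Hivep3-/- iNKT2 libraries had 91 and 118 value levels below their median, against 219 and 159. Their part in the Tcf12 changes was not tested.

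**Figure D4:**
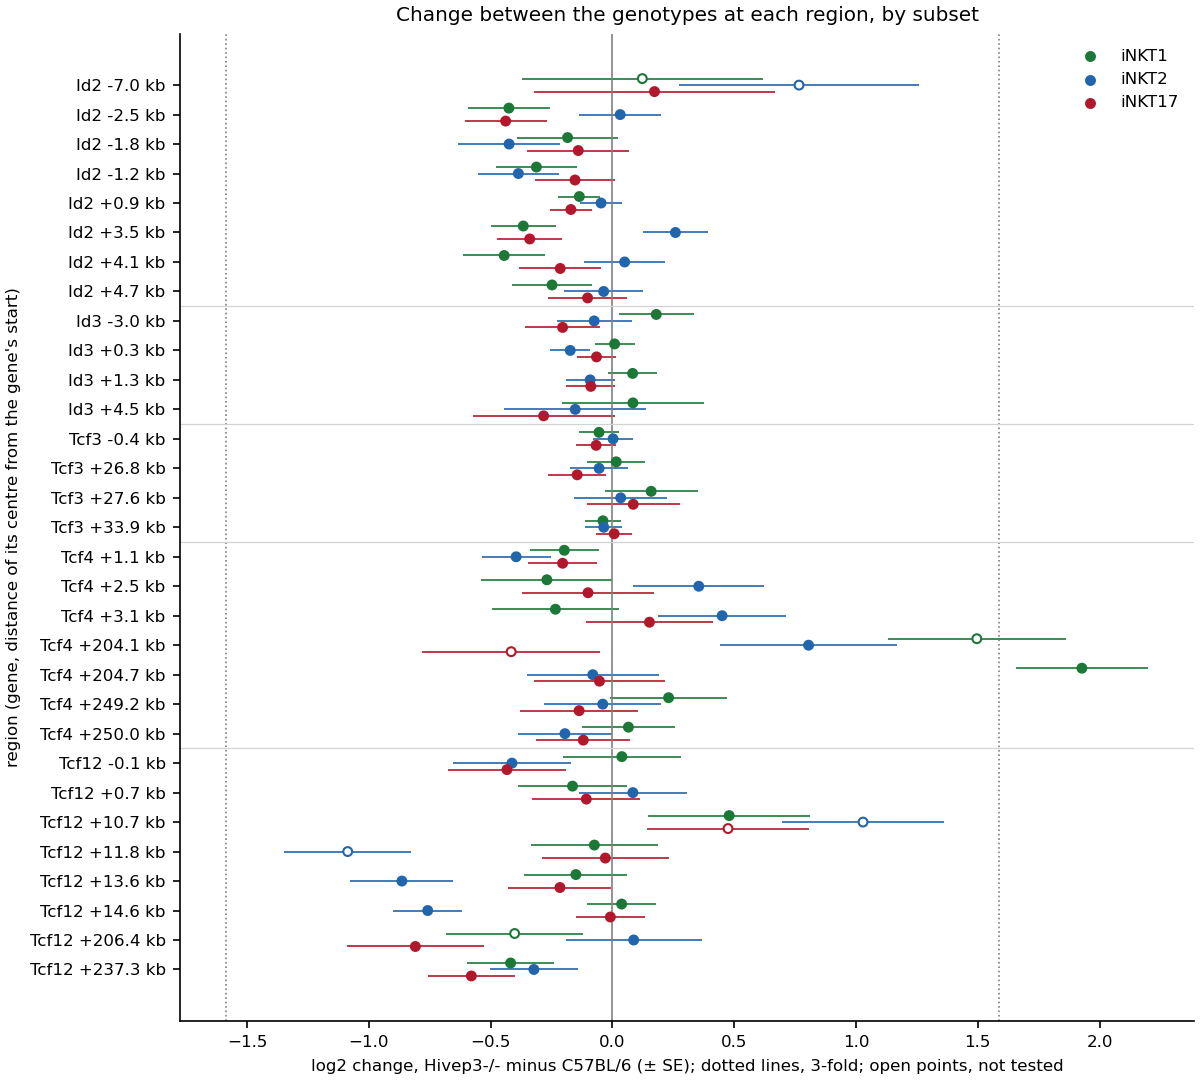
Log2 change of Hivep3-/- against C57BL/6 cells (horizontal axis, with SE) at each of the 31 regions (vertical axis) in iNKT1, iNKT2 and iNKT17 cells (colours), with dotted lines at 3-fold and open points where the region was too low to be tested. Tcf4 +204.7 kb in iNKT1 cells lies beyond the line, and Tcf12 +13.6 and +14.6 kb in iNKT2 cells lie below 0.

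For the region with the widest range at each gene, the 3 promoters with the most similar profile over the 12 libraries were sought among 12949 promoters. These correlations are descriptions, since the libraries fall into subsets and the promoters were picked for them. Id2 -7.0 kb was most like Cbs (r = 0.975), Ift172 (0.971) and Snx22 (0.970). Id3 -3.0 kb was most like Tll2 (0.957), Wnk4 (0.950) and Myh7b (0.945). Tcf3 +27.6 kb was most like Adamts6 (0.968), Sall2 (0.953) and Fam222b (0.951). Tcf4 +204.7 kb was most like Ppic (0.974), Tnp2 (0.948) and Ppfia4 (0.946). Tcf12 +11.8 kb was most like Sh2d2a (0.979), which encodes a T cell adaptor, Dnajc10 (0.977) and Klf2 (0.972), which encodes a factor that controls T cell egress.

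Partners and antagonists of these proteins were read by the same rule of position. Of 14 such genes 13 had a region, Id4 being without one, which gave 48 regions. In C57BL/6 mice 6 of 45 tested were called between iNKT1 and iNKT2 cells, 5 of 46 between iNKT1 and iNKT17 cells and 3 of 44 between iNKT2 and iNKT17 cells (all regions, 16.0%, 20.5% and 16.2%). In Hivep3-/- mice the counts were 6 of 46, 4 of 45 and 4 of 44 (all regions, 17.3%, 19.3% and 15.6%), so the list was not called more often than all regions in any of the 6 comparisons. The examples were chosen after their values were seen. Lmo2, which bridges bHLH dimers to GATA factors, had a region at +17.1 kb with C57BL/6 group means of 1.06, 3.61 and 4.24 for iNKT1, iNKT2 and iNKT17 cells, and Hivep3-/- means of 0.68, 3.26 and 4.04. Cbfa2t3, an ETO family corepressor that E proteins recruit, had a region at +18.7 kb with means of 2.40, 4.97 and 4.21 in C57BL/6 and 3.19, 4.86 and 3.64 in Hivep3-/- iNKT1, iNKT2 and iNKT17 cells. Bhlhe40, a bHLH repressor, had a region at +11.7 kb that was higher in iNKT1 than in iNKT2 cells by 3.05 in C57BL/6 (adjusted p = 0.000364) and 4.21 in Hivep3-/- mice (adjusted p = 2.10e-05). Its paralog Bhlhe41 had a region at +12.7 kb with the opposite order, at -1.87 (adjusted p = 0.000392) and -2.13 (adjusted p = 0.000114). Between genotypes limma called 0 of 43 in each subset (all regions, 1.15%, 1.68% and 0.271%), with 3, 10 and 8 regions at an unadjusted p under 0.05 in iNKT1, iNKT2 and iNKT17 cells. Over all regions such a p was found at 9644 of 54145, 13911 of 55049 and 8570 of 54311. The difference between genotype changes was called at 1 of 46 for iNKT1 against iNKT2 cells (3.06% of all regions), Cbfa2t3 -2.9 kb, with means of 4.22 and 3.82 in C57BL/6 and 4.46 and 2.26 in Hivep3-/- iNKT1 and iNKT2 cells and a difference of 1.81 (SE 0.50, adjusted p = 0.0480). For the other 2 such differences, iNKT1 and iNKT2 each against iNKT17 cells, limma called 0 of 47 and 0 of 46 (all regions, 1.42% and 1.02%). An unadjusted p under 0.05 was found at 7 and 5 (all regions, 8600 of 60543 and 8968 of 60297).

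Genes known as E protein targets in lymphocytes reported here numbered 15, of which 14 had a region, Rag1 being without one, for 171 regions in all. In C57BL/6 mice 28 of 167 were called between iNKT1 and iNKT2 cells, 2 higher and 26 lower in iNKT1. Between iNKT1 and iNKT17 cells 21 of 165 were called, 5 higher and 16 lower, and between iNKT2 and iNKT17 cells 11 of 169, 4 higher and 7 lower in iNKT2 (all regions, 16.0%, 20.5% and 16.2%). In Hivep3-/- mice the corresponding counts were 48 of 168, with 4 higher and 44 lower, 27 of 155, with 4 and 23, and 20 of 168, with 11 and 9 (all regions, 17.3%, 19.3% and 15.6%). Zbtb16, which also serves as a marker here, gave 24, 9 and 3 of these calls in C57BL/6 and 43, 19 and 10 in Hivep3-/- mice. Without it the counts were 4 of 82, 12 of 82 and 8 of 83 in C57BL/6, and 5 of 83, 8 of 82 and 10 of 83 in Hivep3-/- mice, each a smaller share than over all regions. Il7r, the interleukin 7 receptor, had a region at -6.1 kb that was highest in iNKT17 cells, by -3.89 (adjusted p = 8.29e-07) for iNKT1 against iNKT17 cells in C57BL/6 and -4.47 (adjusted p = 2.64e-07) in Hivep3-/- mice. Gfi1, a transcriptional repressor, had regions at +7.8 and -5.5 kb that were higher in iNKT2 than in iNKT17 cells, by 2.48 and 2.19 in C57BL/6 and 1.86 and 1.91 in Hivep3-/- mice. Cdk6, a cell cycle kinase, had a region at +119.6 kb that was higher in iNKT1 cells, by 3.68 against iNKT2 and 3.05 against iNKT17 cells in C57BL/6 mice, and by 1.90 and 3.57 in Hivep3-/- mice, with iNKT2 means of -0.38 and 1.38 in the 2 genotypes. Between genotypes 7 of 147 were called in iNKT1 cells (1.15% of all regions), 6 of them lower at Zbtb16 and 1 higher at Cdkn1a, which encodes the cell cycle inhibitor p21. That region, at +9.8 kb, had iNKT1 means of 1.07 in C57BL/6 and 2.89 in Hivep3-/- mice, a change of 1.81 (SE 0.46, adjusted p = 0.0312), and passed the filter through the knockout alone. The Hivep3-/- means were also above those of C57BL/6 mice in the other subsets. They were -0.49 against -2.05 in iNKT2 cells, where the region was too low to be tested. In iNKT17 cells they were 4.44 against 2.89, which was not called. In iNKT2 and iNKT17 cells limma called 0 of 166 and 0 of 160 (all regions, 1.68% and 0.271%). An unadjusted p under 0.05 was found at 43 and 44 (all regions, 13911 of 55049 and 8570 of 54311). The difference between genotype changes was called at 8 of 169 for iNKT1 against iNKT2 cells (3.06%), 7 of them at Zbtb16, at 5 of 166 for iNKT1 against iNKT17 cells (1.42%), 4 of them at Zbtb16, and at 1 of 170 for iNKT2 against iNKT17 cells (1.02%). The others were Cdk6 +79.5 kb, Rag2 -8.6 kb and Il7r -6.1 kb.

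Accessibility is not expression, and a region inside a gene may act on another gene. With 2 libraries per group, a change without a call is not shown to be absent. How small a change could be resolved at regions of low accessibility was not tested.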

How the data were processed

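The deposited table holds, for 12 libraries (6 groups, 2 each), log2 normalized Tn5 insertions per kb in 63309 regions of 500 bp, as the authors made it after trimming reads with Trimmomatic 0.39 and mapping to mm10 with the ENCODE ATAC-seq pipeline. All 12 libraries were fitted together with limma 3.58.1 in R 4.3.3 (a mean per group, empirical Bayes with trend, 6 residual and 7.17 prior degrees of freedom), on those regions where at least 1 of the compared groups averaged 5 or more on the linear scale. P-values were adjusted by Benjamini-Hochberg over all regions tested, and a region was called when it changed 3-fold or more with an adjusted p below 0.1. The limma step was tested on simulated data, but no values of that test are given here, so no result rests on it.

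Members are all regions within 10 kb of the 5 genes in GENCODE vM21. Every library is given for the promoter region of each gene, the region with the widest range over group means, and the 2 largest called changes per gene and comparison. Members and lists were chosen with earlier results of these data known. Of the listed genes 2 are not reported here. Promoters were read within 1000 bp of a start site. Motifs were counted on both strands of GRCm38.p6 with Python 3.11.15, pysam 0.24.0, numpy 2.4.6 and pandas 2.3.3, and plots were made with matplotlib 3.10.9.

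Titles carry the same replicate numbers in each group. Deviations of same-numbered libraries from their group means correlated at r = 0.163 to 0.237 within a genotype and 0.143 to 0.242 between genotypes (15 pairs of groups, across regions), so the replicate number was tried as a block. Other alternatives were the filter, a constant added before the logarithm, the normalization, the fold, the trend, a fit on the compared groups alone, the distance from the gene, and leaving out each library.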

Additional observations from a re-analysis of the deposited data

Results flagged for a closer look

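Each of these is a difference between subsets in the change from C57BL/6 to Hivep3-/- cells, tested as such in the fit over all 12 libraries, with a negative or positive sign for iNKT1 minus iNKT2, iNKT1 minus iNKT17 or iNKT2 minus iNKT17. At Tcf4 +204.7 kb the genotype change of iNKT1 cells exceeded that of iNKT2 cells by 2.01 (SE 0.38, adjusted p = 0.00860). At the same region it exceeded that of iNKT17 cells by 1.98 (SE 0.38, adjusted p = 0.0201). At Tcf12 +14.6 kb the genotype change of iNKT1 cells exceeded that of iNKT2 cells by 0.80 (SE 0.20, adjusted p = 0.0328), less than 3-fold. Also at Tcf12 +14.6 kb, the genotype change of iNKT2 cells less that of iNKT17 cells was -0.75 (SE 0.20, adjusted p = 0.0884). At Id2 +3.5 kb, where C57BL/6 values were 4.93 and 4.76 in iNKT1 cells, 4.80 and 4.67 in iNKT2 cells, and 5.39 and 5.59 in iNKT17 cells and Hivep3-/- values 4.44 and 4.52 in iNKT1 cells, 5.09 and 4.90 in iNKT2 cells, and 5.22 and 5.08 in iNKT17 cells, the genotype change of iNKT1 cells less that of iNKT2 cells was -0.62 (SE 0.19, adjusted p = 0.0683). Those listed are all members with an adjusted p below 0.1 in such a test by limma, 3, 1 and 1 of 30 in the order of pairs above. Over all regions the counts were 6264 of 59926, 2202 of 60543 and 1984 of 60297. The members' shares lay near these, so their number is not a result about these genes. The cause of these differences was not tested.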

How the results depend on the processing

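The counts of called members were recomputed under each alternative, and no direction reversed. Of 320 values of the 30 called changes under other settings, 292 kept the call and 28 fell short of 3-fold. The setting of 2-fold is among them, where a change called at 3-fold had to keep its call. A further 10 lost it because the region was not tested with a mean of at least 5 required over all libraries, 4 at Id2 -7.0 kb, 4 at Tcf12 +10.7 kb and 2 at Tcf4 +204.1 kb. Of 127 values without 1 library 121 kept it and 6 fell short, and 1 more, at Tcf4 +204.1 kb between C57BL/6 iNKT1 and iNKT2 cells, was not tested without C57BL/6 iNKT2 replicate 2. A selection of 15 changes that were not called was followed in the same way. All 165 values under other settings and all 72 without 1 library stayed not called. These changes were below 2-fold in the main fit, so this outcome was nearly fixed in advance and is no test of them. Outside this selection, other members without a call did gain one at some settings or without 1 library, as the counts below show.

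Counts of members are given with the share of all regions called at the same setting in parentheses, and 30 members were tested unless another number is given. Here and in the next paragraph settings that moved a count by little are left out, so a setting not listed need not have kept the count. Between C57BL/6 iNKT1 and iNKT17 cells, for example, Tcf12 +206.4 kb and Tcf4 +204.7 kb lost their calls with 1 added. In C57BL/6 mice the count between iNKT1 and iNKT2 cells was 5 (16.0%). It was 3 of 28 with a mean of at least 5 required over all libraries (12.8%), 3 with 5 added to every linear value (4.24%), 9 at 2-fold (27.3%) and 10 of 59 with 50 kb around the genes (16.0%). The count of 7 (20.5%) between iNKT1 and iNKT17 cells was 1 with 5 added (8.41%). The count of 2 (16.2%) between iNKT2 and iNKT17 cells was 1 of 28 with the mean over all libraries (12.4%), 1 with 1 added (13.6%), 0 with 5 added (5.57%), 4 at 2-fold (26.1%), 1 of 18 within gene bodies alone and 7 of 59 with 50 kb (both 16.2%). In Hivep3-/- mice the count of 5 (17.3%) between iNKT1 and iNKT2 cells was 8 at 2-fold (29.5%) and 9 of 58 with 50 kb (17.3%). That of 5 (19.3%) between iNKT1 and iNKT17 cells was 3 of 28 with the mean over all libraries (15.4%) and 1 with 5 added (7.69%). That of 3 (15.6%) between iNKT2 and iNKT17 cells was 1 of 28 with the mean over all libraries (12.1%), 0 with 5 added (4.99%), 5 at 2-fold (25.9%) and 8 of 56 with 50 kb (15.6%).

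Between genotypes the count of 1 of 28 in iNKT1 cells (1.15%) was 0 with 1 added (0.717%) and 0 with 5 added (0.0480%), and that of 0 of 28 in iNKT2 cells was 1 of 55 with 50 kb (both 1.68%). For the genotype change of iNKT1 against iNKT2 cells the count of 1 (3.06%) was 0 with 5 added (0.307%) and 2 of 60 with 50 kb (3.06%). For iNKT1 against iNKT17 cells the count of 1 (1.42%) was 2 of 31 without the filter (1.56%), which added Tcf4 +204.1 kb, and 0 with 5 added (0.0595%). A stricter filter, a smaller fold and a wider distance change by construction which regions can be called, and an added constant shrinks folds of low values. Beyond that the cause was not tested.

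Leaving out 1 library gave 4 to 5, 5 to 7 and 1 to 2 called members for the C57BL/6 comparisons of iNKT1 with iNKT2, iNKT1 with iNKT17, and iNKT2 with iNKT17 cells, the 1 being without C57BL/6 iNKT2 replicate 2. It gave 5 to 7, 5 to 5 and 3 to 4 in Hivep3-/- mice, 1 to 1, 0 to 0 and 0 to 0 between genotypes in iNKT1, iNKT2 and iNKT17 cells, and 1 to 1, 1 to 1 and 0 to 0 for the differences between genotype changes. A group left with 1 library is assumed to vary like the others. With the replicate block, over all libraries or within genotype, the 12 counts in the same order were 5, 7, 2, 5, 5, 3, 1, 0, 0, 1, 1 and 0, as without it. Read depth is not in the table, so counting limits could not be computed.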

Other observations

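Widening the distance to 50 kb added 31 regions, of which 9 were called in some comparison (all regions, 35.2% of 63309), so the number is not a result about these loci. Those named here were picked with their values in view. The clearest at an inhibitor gene was the region 20.2 kb upstream of Id3 (chr4:136122998-136123497), with C57BL/6 values of 0.92 and 1.44 in iNKT1 cells, 4.19 and 4.21 in iNKT2 cells, and 0.91 and 1.54 in iNKT17 cells. Hivep3-/- values were 1.74 and 1.66 in iNKT1 cells, 4.39 and 4.17 in iNKT2 cells, and 0.99 and 1.11 in iNKT17 cells. The 4 iNKT2 libraries were above the 8 others, while the Id3 promoter differed by less than 3-fold. The change of iNKT1 against iNKT2 cells was -3.02 (adjusted p = 2.55e-06) in C57BL/6 and -2.58 (adjusted p = 7.2e-06) in Hivep3-/- mice. At the region 46.0 kb upstream of Id3 iNKT2 cells were also highest, with a change of iNKT1 against iNKT2 cells of -2.16 (adjusted p = 0.000268) and -2.74 (adjusted p = 3.1e-05). The region 44.3 kb upstream of Id2 was highest in iNKT17 cells, like Id2 -7.0 kb, with 2.41 and 2.35 in iNKT1 cells, 1.58 and 1.23 in iNKT2 cells, and 4.27 and 4.42 in iNKT17 cells in C57BL/6 mice. Its change of iNKT2 against iNKT17 cells was -2.94 (adjusted p = 1.64e-06) in C57BL/6 and -2.23 (adjusted p = 1.85e-05) in Hivep3-/- mice. At Tcf4 -42.7 kb iNKT2 cells differed between genotypes, with 1.51 and 0.91 in C57BL/6 and 2.79 and 3.10 in Hivep3-/- libraries, a change of 1.73 (adjusted p = 0.0163). This region passed the filter through the Hivep3-/- libraries alone, so it could be called only if higher in them.

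At 8 of the 31 members (25.8%) the library numbered 2 differed from that numbered 1 in the same direction in all 6 groups, against 9013 of 56928 regions (15.8%) that averaged 5 or more on the linear scale. The members were not filtered in this way. Id2 -7.0 kb, Tcf4 +204.1 kb and Tcf12 +10.7 kb averaged less, at 3.04, 4.20 and 4.79, and are not among the 8. At Id3 +4.5 kb the library numbered 2 was higher in 6 of 6 groups, by 0.37 to 0.75 with a mean of 0.57.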
